A study of Mus musculus with 24 samples.

Results

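The genes of MHC class II presentation were followed across 2 white fat depots, 2 vectors and 2 diets. They were picked by gene symbol from the deposited expression table, and all 10 were found among its 54532 genes: H2-Aa, H2-Ab1, H2-Eb1, H2-DMa, H2-DMb1, H2-DMb2, H2-Oa, H2-Ob, Cd74 and Ciita. The study sequenced polyadenylated RNA from fat of C57BL6 mice. Some mice were given adeno-associated virus (AAV) encoding irisin, which muscle releases as a hormone, and control mice were given AAV encoding green fluorescent protein (GFP). Feeding lasted 18 weeks, with chow or with a high-fat diet (HFD), and inguinal fat from under the skin (iWAT) and epididymal fat from the abdomen (eWAT) were taken. The 8 groups were thus iWAT GFP chow, iWAT GFP HFD, iWAT irisin chow, iWAT irisin HFD and the same 4 combinations in eWAT, with 3 libraries each and 24 in all. Every group carried an AAV, so no group shows fat without a vector. Neither the origin of a group's 3 libraries from separate animals nor that of the depots from shared animals is stated in the labels, and p-values therefore measure only the spread between these libraries, which may be technical.

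MHC class II molecules display fragments of proteins taken up by a cell to CD4 T cells. Each is a pair of an alpha and a beta chain: H2-Aa and H2-Ab1 encode the chains of I-A, and H2-Eb1 encodes the beta chain of I-E, whose alpha chain gene is defective in C57BL/6 mice. Cd74, the invariant chain, holds new class II molecules together, guides them to endosomes and leaves a fragment called CLIP in the groove. H2-DM, built from H2-DMa and a beta chain from H2-DMb1 or H2-DMb2, removes CLIP and helps peptides bind, and H2-O, built from H2-Oa and H2-Ob, restrains H2-DM and is known mainly from B cells. Ciita is the coactivator that switches on class II genes, acting with the RFX, CREB and NF-Y proteins on the X and Y boxes of class II promoters. In fat class II genes are known from macrophages, dendritic cells and B cells, and adipocytes are also reported to express them.

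Levels are given in FPKM, fragments scaled to gene length and library depth, which can be compared between genes. Differences are on the scale of log2(FPKM + 0.5), with their standard error (SE) and the adjusted p of limma's moderated test over all genes tested, and a gene was called changed where that p was under 0.05. The libraries held 14145644 to 19726771 gene reads. The most abundant member, Cd74, had 4695 to 38008 reads in a library and the least abundant, H2-Oa, had 0 to 492, with a median of 8, so values of H2-Oa rest on few reads. The 7 adipocyte marker genes, Adipoq and Plin1 among them, summed to 4247 to 11785 FPKM, and none of them was at 0 in all libraries of a group. In these bulk samples fewer cells of a type and less RNA per cell cannot be told apart.

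In 4 libraries markers of other tissues or of lymphocytes stood apart, and results that rest on them are given with and without them. The iWAT GFP HFD library 1 held 11.1 FPKM of the follicular gene Cr2 and 6.96 of the T cell gene Cd3e. Its 9 lymph node markers summed to 129 FPKM, against 156 in eWAT GFP chow 1 and a median of 18.3 over the 24 libraries. Of these markers, the chemokine genes Ccl21a and Ccl19 were at 0 FPKM in all eWAT GFP chow libraries. In iWAT GFP HFD none was at 0 in all libraries, so the 2 sums do not stand for the same genes. The 10 B cell markers summed to 725 FPKM in iWAT GFP HFD 1, to 163 in eWAT GFP chow 1 and to at most 33.0 in any other library. The other 2 libraries were iWAT irisin chow 3, with 279 FPKM of the muscle gene Ckm, and eWAT GFP HFD 3, with 291 FPKM of the epididymal gene Adam7.

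Of the 10 genes, 8 lie in the class II region of chromosome 17 between positions 34092340 and 34316199, on the coordinates of the deposited table. Of 54495 gene IDs shared with GENCODE M21 on build GRCm38, 98.3% had the same position there. Of the 10 members only 3 had exactly the same position, while all 10 overlapped their model. Cd74 lies on chromosome 18 (60803848 to 60812646) and Ciita on chromosome 16 (10480059 to 10528418). All 10 are annotated as protein coding, and FPKM values cover the exons of each gene model. The model of H2-Oa overlaps BC051537 on the opposite strand, that of Cd74 overlaps the microRNA gene Mir5107, and that of Ciita overlaps Dexi on the opposite strand. Since the sources used here do not give the strand of the libraries, reads of such neighbours could not be told apart.

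The median levels of the members fell into 3 tiers. Cd74 was highest, with a median over the 24 libraries of 551 FPKM (range 207 to 1372). The classical chains followed, with medians of 282 FPKM for H2-Eb1 (range 128 to 609), 219 for H2-Ab1 (98.5 to 477) and 187 for H2-Aa (82.3 to 423), and their ranges overlapped each other. The H2-DM chains H2-DMb1 (median 28.0 FPKM, range 8.79 to 86.3) and H2-DMa (median 20.2, range 7.76 to 48.6) formed the middle tier and also overlapped. The lowest tier held H2-DMb2 (median 2.18 FPKM, range 0.691 to 72.3), Ciita (1.89, 0.707 to 14.5), H2-Ob (1.03, 0.238 to 54.9) and H2-Oa (0.394, 0 to 19.1). H2-Oa had 0 reads in iWAT irisin HFD 2, where 3 reads would have given 0.171 FPKM.

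The I-E beta chain was abundant while its alpha chain gene was almost absent. H2-Ea-ps, the disabled alpha chain gene, was listed at 0 FPKM in 22 of the 24 libraries, where 3 reads would have given 0.227 to 0.328 FPKM, and reached 0.297 and 0.105 in the remaining ones. H2-Eb2, another beta chain gene of the region, was at 13.8 FPKM in iWAT GFP HFD 1 and at most 1.7 elsewhere, below the level at which it could be tested within a depot.

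**Figure D1:**
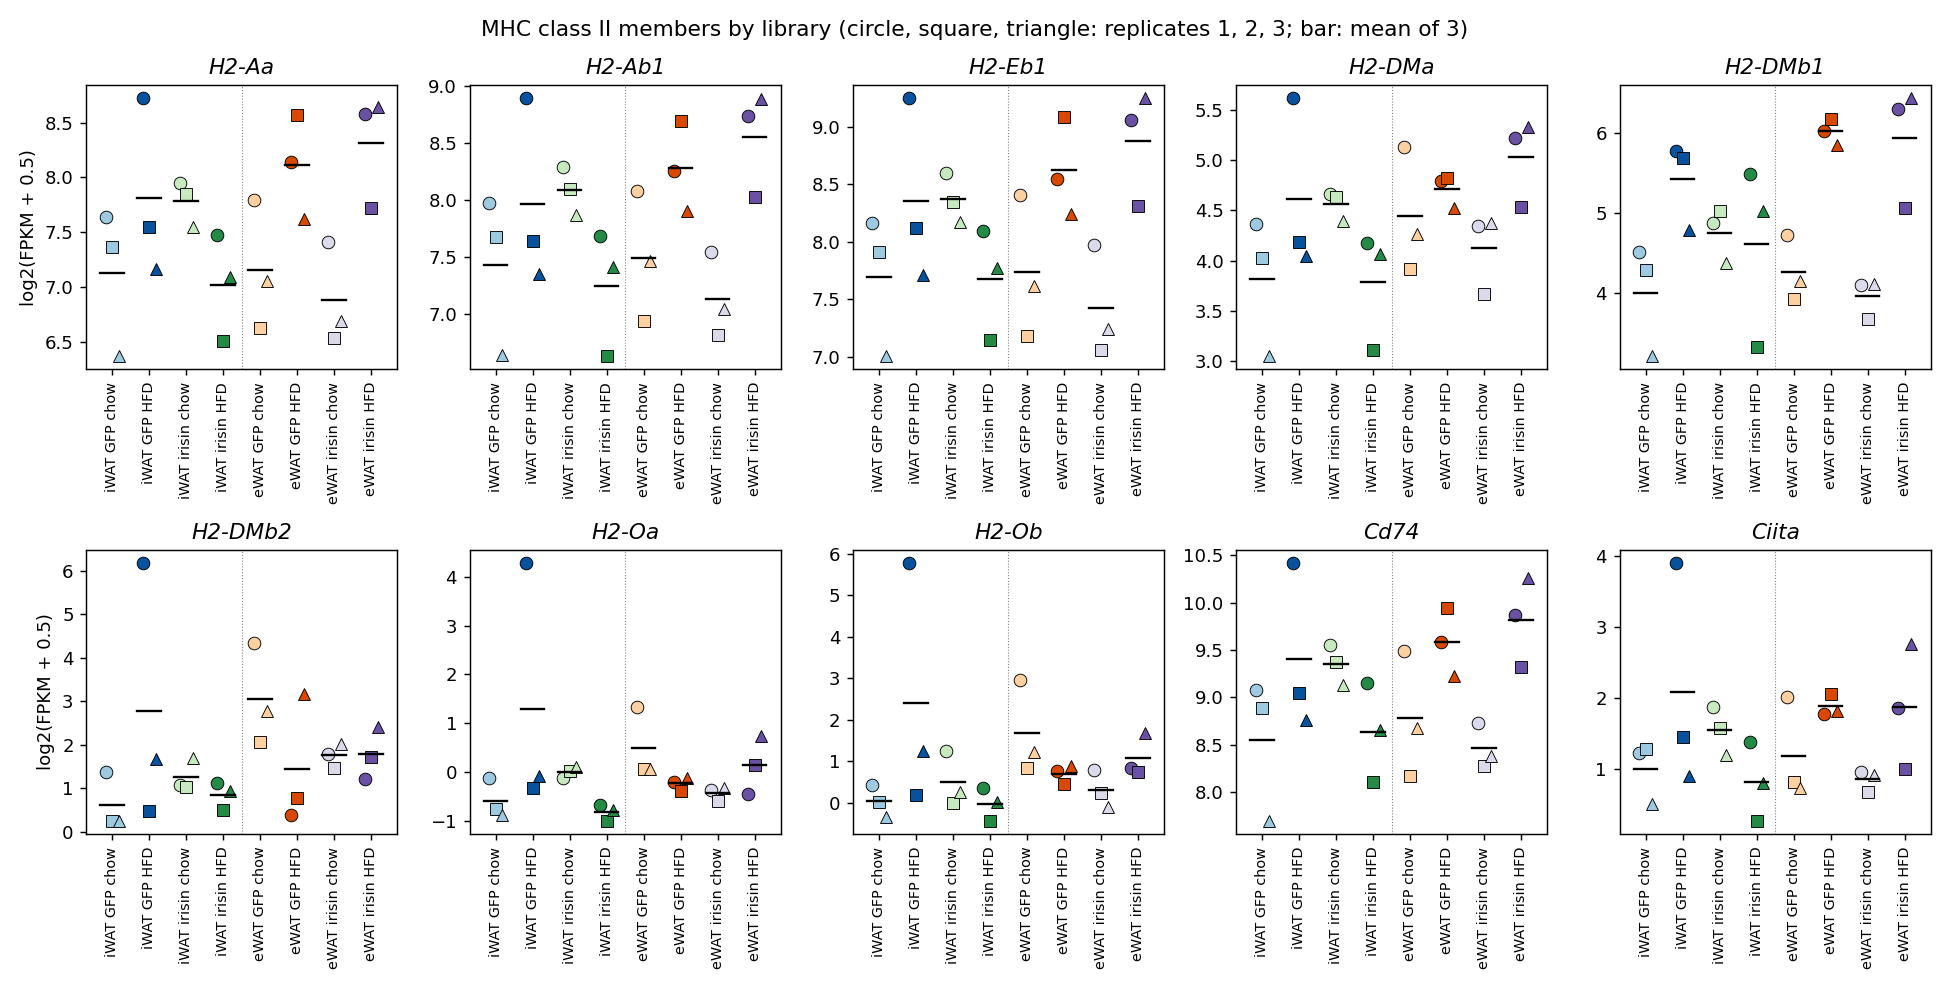
Level of each of the 10 class II presentation genes as log2(FPKM + 0.5) (y axis) in the 8 groups (x axis). Each point is a library, with circles, squares and triangles for replicates 1, 2 and 3, and bars mark the mean of 3; the iWAT GFP HFD library 1 is the highest point for 9 genes, and H2-DMb1 is highest in eWAT irisin HFD 3 at 86.3 FPKM.

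The classical chains and Cd74 kept nearly fixed proportions across all 24 libraries. The ratio of H2-Aa to H2-Ab1 lay between 0.749 and 0.933 (coefficient of variation 6.24%), that of H2-Eb1 to H2-Ab1 between 1.10 and 1.43 (6.27%) and that of Cd74 to H2-Ab1 between 2.08 and 2.88 (8.55%). The DM alpha chain varied more against H2-Ab1 (coefficient of variation 19.9%, ratio 0.0672 to 0.154), and Ciita more again (46.7%, 0.00575 to 0.0303). The highest Ciita ratio was that of iWAT GFP HFD 1, and the next was 0.0133 in eWAT irisin HFD 3. As a description over libraries that share depots and depth, Pearson correlations of log2 levels were 0.98 to 1.0 among H2-Aa, H2-Ab1, H2-Eb1 and Cd74. Ciita correlated with Cd74 at 0.90, and H2-Oa with H2-Ob at 0.95. The lowest value of all pairs, 0.18, was that of H2-DMb1 with H2-DMb2, and it was 0.25 when the mean of each group was taken away.

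Letters like those of the X and Y boxes were found together in the promoter windows of 5 of the 10 members. RefSeq windows of 300 bases (250 before and 50 after the start site, build GRCm38.p6) were available for 6 members whose start site lies in the deposited gene, all on chromosome 17; those of H2-DMa start outside it and were not used. The letters were searched on both strands, chosen after the windows had been read: GATTGG for the Y box, where NF-Y binds, and AACNNNTGA or AACNNTGAC for the X box, where RFX and CREB proteins bind. An X match followed on the same strand by a Y match after 5 to 40 bases was found in H2-Aa, H2-Eb1, H2-DMb1, H2-DMb2 and H2-Ob, with 18 to 21 bases between them, and in 66 of all 32851 windows (0.201%). Since the letters were chosen from the members' own windows, these counts are a description and no test. GATTGG alone was in 16.1% of all windows, AACNNNTGA in 11.9% and AACNNTGAC in 2.66%, and the matches printed do not overlap each other. Stretches of 90 bases of 4 genes, 5′ to 3′ in the direction of the gene, are printed to show the shared pair in a classical alpha chain, a classical beta chain and a gene each of H2-DM and H2-O, with matches in capitals.
H2-Aa: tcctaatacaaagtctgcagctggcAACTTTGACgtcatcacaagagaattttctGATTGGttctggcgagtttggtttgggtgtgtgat
H2-Eb1: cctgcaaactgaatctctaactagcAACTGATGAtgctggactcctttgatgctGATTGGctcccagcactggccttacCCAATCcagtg
H2-DMb2: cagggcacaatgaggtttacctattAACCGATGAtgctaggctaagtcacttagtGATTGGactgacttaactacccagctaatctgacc
H2-Ob: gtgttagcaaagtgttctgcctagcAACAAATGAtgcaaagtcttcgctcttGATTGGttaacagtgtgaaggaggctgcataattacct
They lie at chr17:34287838-34287927 (minus strand), and on the plus strand at chr17:34305753-34305842, chr17:34145103-34145192 and chr17:34238795-34238884. H2-Oa has the Y letters and no X match in its window. The stretch of H2-DMb1 around its pair is the same as that of H2-DMb2 at 78 of 90 positions; it lies before the RefSeq start site and inside a 5′ UTR of the longer GENCODE M21 model, and is not printed. A match is a description of letters and not a measured binding site.

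In eWAT a rise on HFD was called for 5 of the 10 members in irisin mice and for 1 in GFP mice. H2-DMb1 rose in both, 3.92-fold in irisin mice and 3.36-fold in GFP mice on the log2(FPKM + 0.5) scale. In irisin mice H2-Aa, H2-Ab1, H2-Eb1 and Cd74 rose 2.55-fold to 2.74-fold; these 4 calls were lost when any of chow library 2, chow library 3, HFD library 1 or HFD library 3 was left out, and they were kept in 12 (H2-Aa, H2-Eb1 and Cd74) or 13 (H2-Ab1) of 17 alternative settings. No member fell by the test. Of all genes tested, 17.4% were called in irisin mice and 26.5% in GFP mice, so the 1 of 10 in GFP mice lay below the share of all genes. The median difference of the 10 members was 1.18 in irisin mice and 0.74 in GFP mice on the log2 scale, beside 0.0027 and 0.0043 over all genes.

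For the I-A beta chain H2-Ab1 the eWAT libraries of irisin mice read 186, 112 and 132 FPKM with chow and 427, 261 and 472 on HFD. Every HFD library lay above every chow library, where 36.5% of all genes tested had groups that did not overlap. The difference was 1.42 ± 0.33 (adjusted p = 0.0172). In GFP mice the same gene read 269.9, 122 and 177 FPKM with chow and 306, 413 and 239 on HFD, where the highest chow library, number 1, overlapped the HFD range, and the difference was 0.79 ± 0.33 (adjusted p = 0.103). H2-Aa moved from 122 ± 42.3 to 331 ± 105 FPKM in irisin mice (mean ± SD, n = 3; log2 difference 1.43 ± 0.37, adjusted p = 0.0246) and stood at 151 ± 63.4 and 286 ± 91.8 in GFP mice (0.95 ± 0.37, adjusted p = 0.0814). H2-Eb1 moved from 178 ± 63.9 to 486 ± 151 FPKM in irisin mice (1.45 ± 0.37, adjusted p = 0.024) and stood at 226 ± 101 and 405 ± 123 in GFP mice (0.89 ± 0.37, adjusted p = 0.101).

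The invariant chain followed the classical chains. Cd74 read 423, 309.7 and 334 FPKM in irisin mice on chow and 933, 639.9 and 1223 on HFD. The groups did not overlap, beside 36.5% of all genes, and the difference was 1.35 ± 0.34 (adjusted p = 0.0223). In GFP mice it read 718, 288 and 409 on chow and 768, 981 and 598 on HFD (0.80 ± 0.34, adjusted p = 0.104), and again chow library 1, which held 163 FPKM of B cell markers, overlapped the HFD range. Without the 4 libraries rich in other tissues the differences in GFP mice were 1.51 for H2-Aa, 1.27 for H2-Ab1, 1.42 for H2-Eb1 and 1.34 for Cd74 (adjusted p = 0.0317, 0.0399, 0.0408 and 0.0291), and all 4 were called. That fit leaves 2 libraries in each group and drops the highest chow and the lowest HFD value of Cd74. Each of the 4 genes was called in 3 of 17 alternative settings in GFP mice. Ciita stood at 3.55, 1.26 and 1.16 FPKM with chow and 2.94, 3.67 and 3.04 on HFD in GFP mice, and at 1.45, 1.11 and 1.39 and 3.14, 1.5 and 6.28 in irisin mice. Its differences of 0.70 ± 0.42 and 1.02 ± 0.42 were not called (adjusted p = 0.245 and 0.116).

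The chains of H2-DM did not move alike. H2-DMb1 read 25.9, 14.8 and 17.4 FPKM in GFP mice on chow and 64.9, 72.1 and 57.1 on HFD, a difference of 1.75 ± 0.33 (adjusted p = 0.00385). In irisin mice it read 16.6, 12.3 and 16.9 and 78.4, 32.9 and 86.3 (1.97 ± 0.33, adjusted p = 0.00451). The groups did not overlap in either, beside 44% of all genes in GFP mice and 36.5% in irisin mice. The call was kept under all 17 alternative settings in each vector. Its partner H2-DMa stood at 22.7 ± 10.6 and 25.8 ± 2.91 FPKM in GFP mice (0.27 ± 0.31, adjusted p = 0.568) and at 17.4 ± 4.49 and 33.1 ± 9.10 in irisin mice (0.90 ± 0.31, adjusted p = 0.072). Within a library the ratio of H2-DMb1 to H2-DMa was thus 0.75 to 1.02 on chow and 2.39 to 2.59 on HFD in GFP mice, and 0.835 to 1.0 and 1.45 to 2.18 in irisin mice. The ratios were not tested.

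The other beta chain gene, H2-DMb2, pointed the opposite way in GFP mice. It read 19.7, 3.67 and 6.37 FPKM with chow and 0.819, 1.23 and 8.54 on HFD, a difference of -1.60 ± 0.71 (adjusted p = 0.121) that was not called; HFD library 3, the one with epididymal RNA, was the highest of its group. Without the 4 libraries rich in other tissues, which leaves 2 libraries in each group, the difference was -1.82 (adjusted p = 0.0216) and was called; over 17 alternative settings it ran from -2.46 to -0.96 and was called in 2. In irisin mice H2-DMb2 read 2.95, 2.27 and 3.58 and 1.82, 2.81 and 4.85, a difference of 0.02 ± 0.71 (adjusted p = 0.987). The ratio of H2-DMb2 to H2-DMb1 was lower in every HFD library than in every chow library of the same vector, 0.248 to 0.760 on chow against 0.0126 to 0.150 on HFD in GFP mice and 0.177 to 0.212 against 0.0232 to 0.0854 in irisin mice. These genes are near copies: of all stretches of 50 bases in the longest GENCODE M21 transcript of H2-DMb1, 27.2% also occur in H2-DMb2, and 25.2% of those of H2-DMb2 occur in H2-DMb1, so that some reads could be lost or shared between them. No other pair of members shared such a stretch.

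The H2-O genes stayed low in eWAT on either diet. H2-Ob, the beta chain, read 7.28, 1.28 and 1.86 FPKM in GFP mice on chow and 1.20, 0.872 and 1.37 on HFD (-0.97 ± 0.48, adjusted p = 0.163), and 1.24, 0.685 and 0.429 and 1.28, 1.18 and 2.69 in irisin mice (0.77 ± 0.48, adjusted p = 0.291). H2-Oa, the alpha chain, stood at 1.03 ± 0.843 and 0.354 ± 0.0805 FPKM in GFP mice (-0.72 ± 0.36, adjusted p = 0.171) and at 0.244 ± 0.0699 and 0.668 ± 0.468 in irisin mice (0.58 ± 0.36, adjusted p = 0.299). The high chow value of both genes in GFP mice came from library 1, the one with many B cell markers. Leaving out those 4 libraries, the differences in GFP mice were -0.43 for H2-Ob and -0.36 for H2-Oa.

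**Figure D2:**
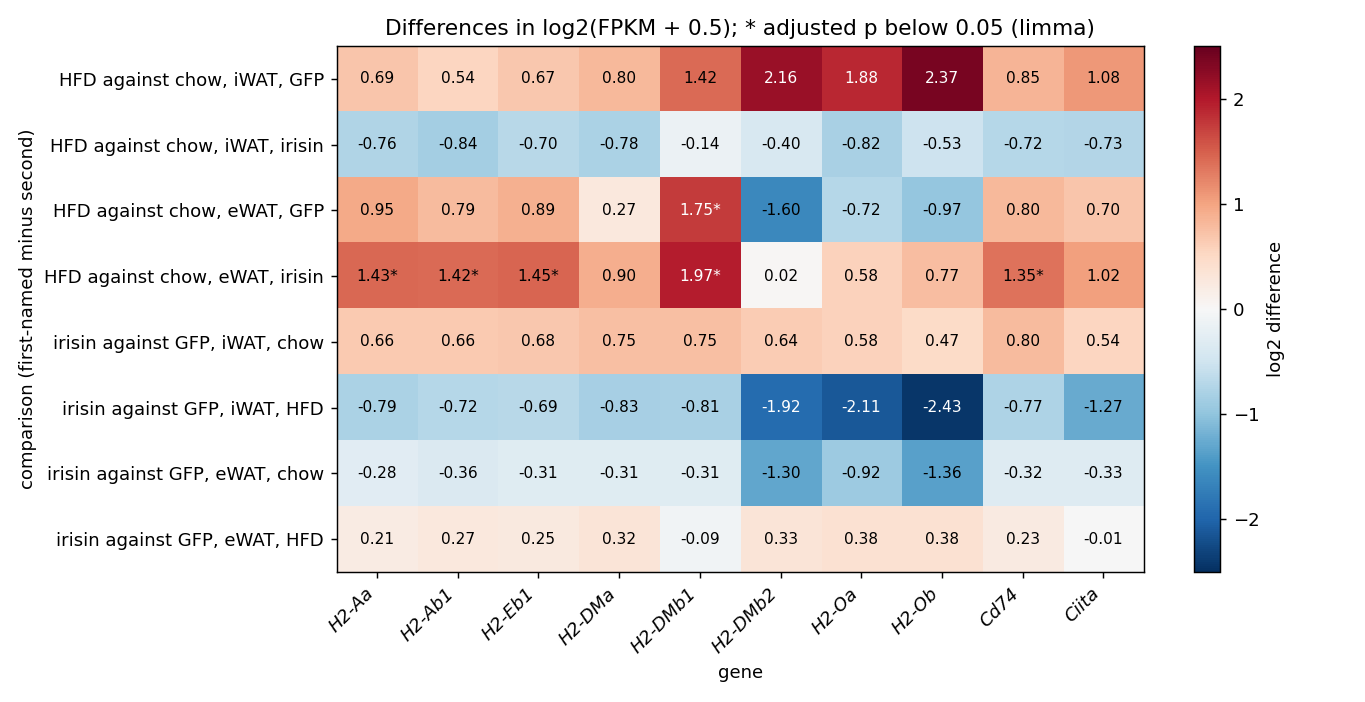
Differences in log2(FPKM + 0.5) of the 10 genes (columns) for HFD against chow and irisin against GFP in each depot (rows), with red for higher and blue for lower in the group named first and an asterisk for an adjusted p below 0.05. The asterisks are 1 in eWAT GFP mice (H2-DMb1, 1.75) and 5 in eWAT irisin mice; the iWAT diet rows hold positive values in GFP mice and negative values in irisin mice, none of them called.

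Genes that work with class II in the endosome rose with the diet in eWAT in nearly all cases. Of 10 processing genes, 9 rose in GFP mice and 9 in irisin mice, with medians of 1.86 and 1.24 on the log2 scale. Of all genes tested, 26.5% and 17.4% were called. Ctss, the cathepsin that trims the invariant chain, rose by 3.5 ± 0.46 and 2.95 ± 0.46 (adjusted p = 0.000982 and 0.00332). Ctsz rose by 1.89 ± 0.24 and 1.53 ± 0.24, and Ctsd, the aspartyl cathepsin, by 1.94 ± 0.25 and 1.24 ± 0.25. The gene without a call was March8, a ubiquitin ligase, at 0.12 and 0.24.

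Of 14 genes listed for class II transcription, 3 rose and 2 fell in GFP mice and 2 rose in irisin mice. The list is wider than the factors of the X and Y boxes. The share of all genes called was 26.5% in GFP mice and 17.4% in irisin mice. The rises were those of the myeloid factors Spi1 (2.86 ± 0.48 and 1.94 ± 0.48) and Irf8 (1.95 ± 0.42 and 1.71 ± 0.42) in both vectors and of the NF-Y subunit Nfya in GFP mice (0.96 ± 0.25); the falls were those of Irf4 (-0.99 ± 0.24) and Nfyb (-0.42 ± 0.11). None of the RFX genes Rfx5, Rfxap and Rfxank was called, with differences between -0.27 and 0.19. Of 8 tested genes of the interferon gamma route, which switches Ciita on, Ifngr2 (1.21 ± 0.19 and 0.85 ± 0.19) and Jak1 (0.43 ± 0.14 and 0.60 ± 0.14) rose in each vector and none fell. Of 6 tested costimulation genes 1 rose in each vector, the activation marker Cd83 (2.77 ± 0.45 and 2.44 ± 0.45). Beside the shares of all genes, the counts in these lists are a description and no result about a list.

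Markers of presenting cells moved beside the members in eWAT. Of 10 macrophage markers 9 rose in GFP mice and 4 in irisin mice, and their summed level was 1134 to 1563 FPKM with chow and 4156 to 5485 on HFD in GFP mice, and 1019 to 1154 and 1323 to 3978 in irisin mice. None was at 0 in all libraries of a group. The share of all genes called was 26.5% in GFP mice and 17.4% in irisin mice. The macrophage antigen Adgre1 rose by 2.89 ± 0.43 and 2.34 ± 0.43 and Cd68 by 3.97 ± 0.50 and 2.75 ± 0.50, and of 6 genes of lipid-associated macrophages 5 rose in each vector (Gpnmb by 7.26 ± 0.72 and 5.99 ± 0.72). The ratio of H2-Ab1 to Adgre1 was 6.99 to 13.3 on chow and 1.81 to 2.31 on HFD in GFP mice, and 7.10 to 11.2 and 3.25 to 8.08 in irisin mice. The part of macrophage RNA in the class II result was not tested.

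Of 9 tested dendritic cell markers, 1 rose and 2 fell in each vector: Itgax, an integrin also found on macrophages of obese fat, rose by 5.54 ± 0.67 and 4.27 ± 0.67, while Siglech, a marker of plasmacytoid dendritic cells, fell by 1.09 ± 0.26 and 0.94 ± 0.26. Cd209a fell in GFP mice (-1.7 ± 0.29) and Zbtb46, a factor of conventional dendritic cells, in irisin mice (-0.55 ± 0.17). Of 10 B cell markers 5 fell in GFP mice, among them Pax5 (-1.37 ± 0.43, adjusted p = 0.0376) and Cd79a (-2.60 ± 0.81, adjusted p = 0.0363), and none was called in irisin mice. The 5 calls became 0 of 9 tested without the 4 libraries and 2 of 10 with limma's voom on the reads. Summed B cell markers were 13.0 to 163 FPKM with chow and 7.10 to 10.4 on HFD in GFP mice, and 5.02 to 8.87 and 8.72 to 33.0 in irisin mice. The part of B cell RNA in the values of H2-DMb2, H2-Oa and H2-Ob was not tested. None of 8 tested T cell markers was called in either vector, and of 7 adipocyte markers 4 fell and 1 rose in GFP mice and 1 fell and 1 rose in irisin mice. These counts stand beside 26.5% of all genes called in GFP mice and 17.4% in irisin mice.

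Across the 24 libraries H2-DMb1, like H2-Ab1, Cd74 and H2-DMa, went with the macrophage marker Adgre1 and H2-DMb2 did not. As descriptions over libraries that share groups and depth, with no test, Pearson's r of the log2 levels of H2-DMb1 with Adgre1 was 0.79 (Spearman's rho 0.72). It was 0.75 without the 2 libraries farthest from the median of Adgre1 and 0.78 after each group's mean was taken away. Within eWAT r of H2-DMb1 with Adgre1 was 0.96, and within iWAT it was 0.54. For H2-Ab1 with Adgre1 r was 0.71, for Cd74 it was 0.68 and for H2-DMa it was 0.61. For H2-DMb2 with Adgre1 r was -0.05 (rho -0.05), for H2-Oa -0.01 (0.24), for H2-Ob 0.03 (0.27) and for Ciita 0.48 (0.66).

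**Figure D3:**
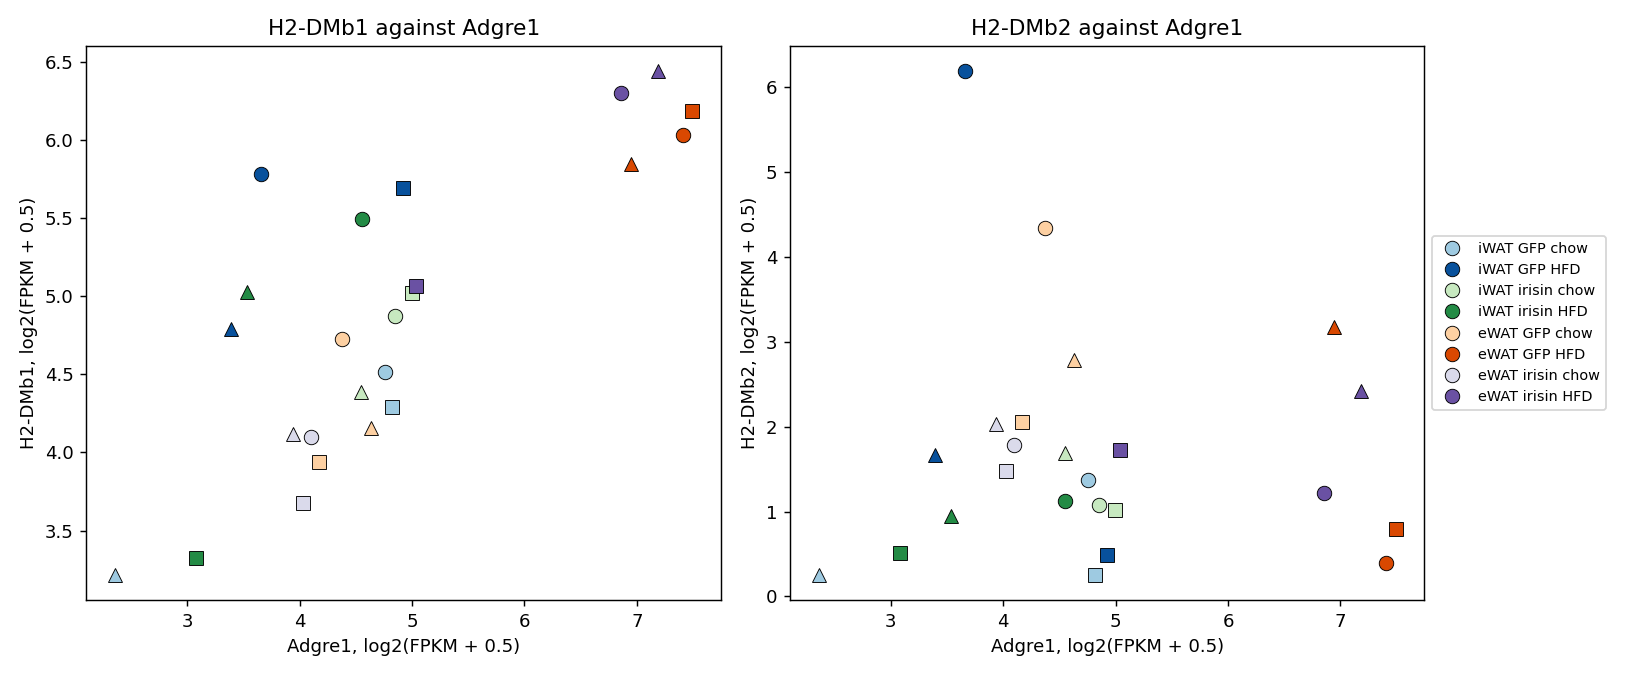
H2-DMb1 (left) and H2-DMb2 (right) against the macrophage marker Adgre1, each as log2(FPKM + 0.5) in 24 libraries, coloured by group, with circles, squares and triangles for replicates 1, 2 and 3. The top right of the left panel holds 5 of the 6 eWAT HFD libraries, while in the right panel the highest point is iWAT GFP HFD library 1, with 72.3 FPKM of H2-DMb2.

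In iWAT no member was called for diet in either vector, and the values pointed in opposite directions. In GFP mice all 10 differences were positive, from 0.54 to 2.37 on the log2 scale, and in irisin mice all 10 were negative, from -0.84 to -0.14. Of all genes tested, 2.37% were called in GFP mice and 9.01% in irisin mice. The values in GFP mice leaned on iWAT GFP HFD library 1, the one rich in B cell and T cell markers.

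H2-Ab1 read 251, 204 and 99.6 FPKM in GFP mice on chow and 477, 199.7 and 163 on HFD, and Cd74 read 541, 474 and 207 and 1372, 529 and 433. HFD library 1 stood above all other iWAT libraries, and chow library 3 was the lowest of its group for both genes; it also had the lowest summed macrophage markers of all 24 libraries, 269.7 FPKM. The differences were 0.54 ± 0.44 for H2-Ab1 (adjusted p = 0.548) and 0.85 ± 0.47 for Cd74 (adjusted p = 0.352). Without HFD library 1 they were 0.07 and 0.35. H2-Aa stood at 149 ± 60.0 and 251 ± 150.5 FPKM (0.69 ± 0.42, adjusted p = 0.404, 0.23 without that library) and H2-Eb1 at 218 ± 81.7 and 365 ± 214 (0.67 ± 0.41, adjusted p = 0.405, 0.22 without it).

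The lowest tier stood out most in that library. H2-DMb2 read 2.09, 0.692 and 0.691 FPKM in GFP mice on chow and 72.3, 0.905 and 2.68 on HFD, H2-Ob read 0.853, 0.507 and 0.296 and 54.9, 0.634 and 1.89, and Ciita read 1.85, 1.94 and 0.919 and 14.5, 2.25 and 1.37. H2-Oa read 0.418, 0.0900 and 0.0473 on chow and 19.1, 0.294 and 0.446 on HFD. The differences of 2.16 ± 1.09, 2.37 ± 1.09, 1.08 ± 0.63 and 1.88 ± 0.93 were not called (adjusted p = 0.311, 0.266, 0.378 and 0.301). Without HFD library 1 they were 0.45 for H2-DMb2, 0.68 for H2-Ob and 0.17 for Ciita, and H2-Oa was then too low to be tested. Beside them, all 7 tested B cell markers had positive differences (median 2.97) and none was called, and the summed level of the 10 was 2.34 to 5.35 FPKM with chow and 7.21 to 725 on HFD. None of 10 macrophage markers was called (median -0.36). The part of B cell RNA in these values was not tested.

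H2-DMb1 was the member whose iWAT value in GFP mice did not rest on that library. It read 22.3, 19 and 8.79 FPKM with chow and 54.5, 51.3 and 27.1 on HFD, with no overlap, a difference of 1.42 ± 0.52 (adjusted p = 0.177) and 1.24 without library 1. Of all genes tested, 23.3% had groups that did not overlap. H2-DMa stood at 14.6 ± 6.26 and 27.4 ± 18.4 FPKM (0.80 ± 0.45, adjusted p = 0.359, 0.30 without library 1). As in eWAT, the highest ratios of H2-DMb1 to H2-DMa came with HFD: 1.11 to 1.20 on chow and 1.12 to 2.89 on HFD in GFP mice, and 0.995 to 1.31 and 1.17 to 2.55 in irisin mice, and the diets overlapped in both.

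In iWAT of irisin mice the classical chains were lower on HFD without overlap and without a call. H2-Ab1 read 313, 273 and 233 FPKM with chow and 206, 98.5 and 170.4 on HFD (-0.84 ± 0.44, adjusted p = 0.242). Cd74 read 752, 663 and 560.5 and 567, 276 and 402 (-0.72 ± 0.47, adjusted p = 0.348), and the groups overlapped. H2-Aa (222 ± 31.2 and 135 ± 43.3 FPKM, -0.76 ± 0.42) and H2-Eb1 (333 ± 49.3 and 211 ± 65.9, -0.70 ± 0.41) had adjusted p-values of 0.272 and 0.298. In all, 5 members had groups that did not overlap, beside 37.1% of all genes. With array weights, which give less weight to libraries that fit the model poorly, 4 members were called lower: H2-Aa, H2-Ab1, H2-Eb1 and Cd74.

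The remaining members of iWAT irisin mice were not called either. H2-DMa stood at 23.2 ± 2.39 and 14.0 ± 5.09 FPKM (-0.78 ± 0.45) and H2-DMb1 read 28.8, 32 and 20.4 and 44.5, 9.54 and 32.1 (-0.14 ± 0.52), the latter with HFD library 2 far below the others. H2-DMb2 read 1.61, 1.53 and 2.73 and 1.68, 0.920 and 1.43 (-0.40 ± 1.09), H2-Ob read 1.89, 0.503 and 0.701 and 0.790, 0.238 and 0.513 (-0.53 ± 1.09), and Ciita read 3.15, 2.47 and 1.80 and 2.11, 0.707 and 1.26 (-0.73 ± 0.63). H2-Oa read 0.418, 0.510 and 0.577 and 0.124, 0 and 0.0848 (-0.82 ± 0.93). Adjusted p-values of these 6 members ran from 0.284 to 0.887. Beside them the summed macrophage markers were 1546 to 2192 FPKM with chow and 313 to 852 on HFD, with 1 of 10 called lower (Fcgr1, -2.48 ± 0.57), and the summed muscle markers were 67.0 to 3327 and 18.1 to 33.3. The part of either in the class II values was not tested. The share of all genes called was 9.01%.

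No gene of the pathway lists was called in iWAT of GFP mice: 0 of 10 processing genes, 0 of 14 class II transcription genes, 0 of 8 interferon gamma route genes and 0 of 6 costimulation genes were called. Their medians were 0.34, 0.06, -0.09 and 0.45 on the log2 scale, and 2.37% of all genes were called. In irisin mice the only call among these lists was Cd80, a costimulation gene, which fell by 1.18 ± 0.28 (adjusted p = 0.0292). The medians were -0.49, -0.14, -0.30 and -0.95, and 9.01% of all genes were called.

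**Figure D4:**
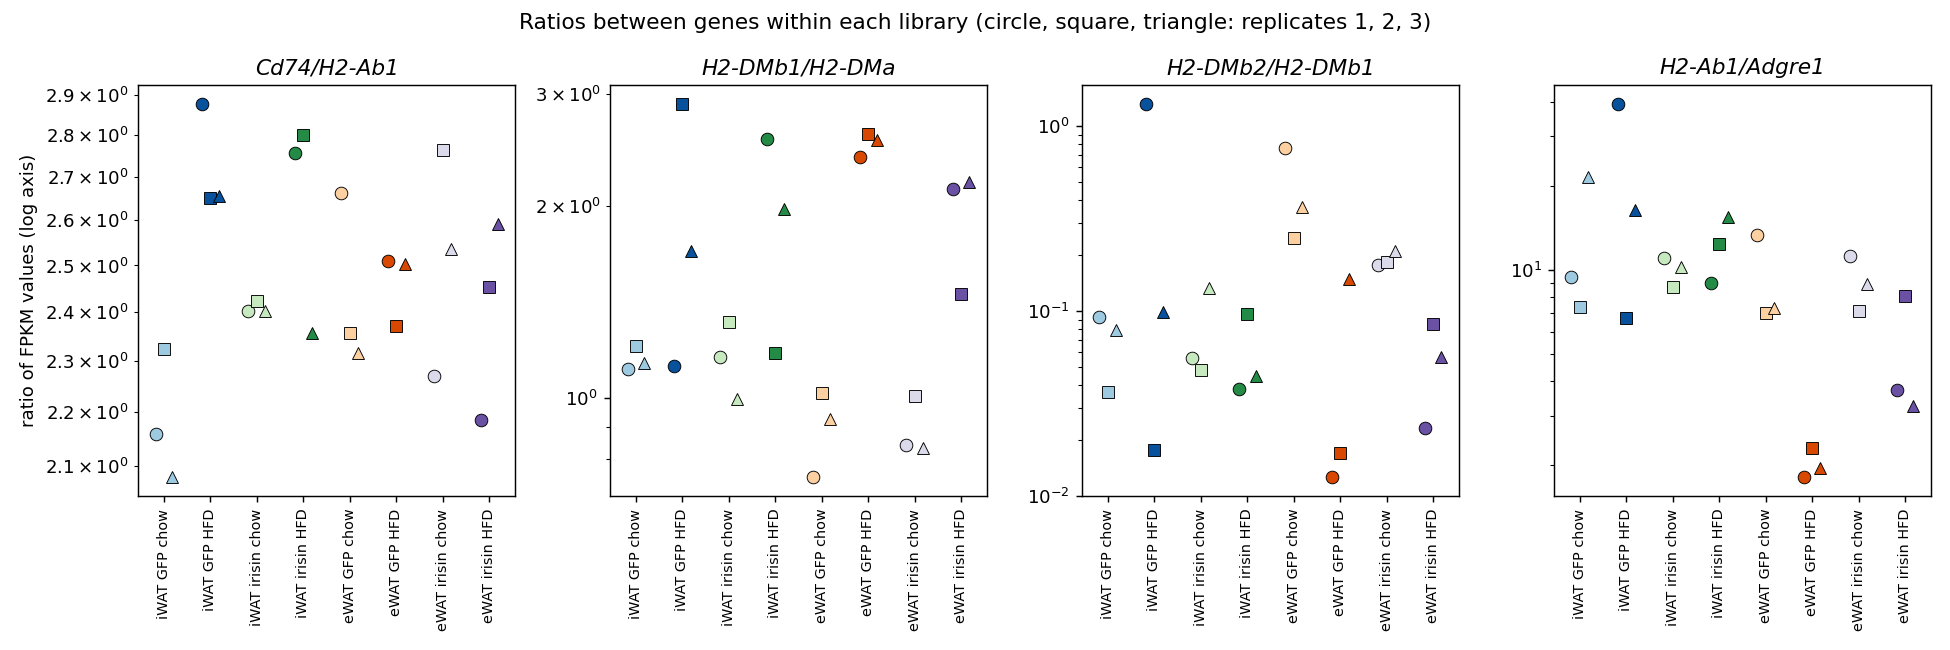
Ratios of FPKM values within each of 24 libraries on a log axis (y) by group (x): Cd74 to H2-Ab1, H2-DMb1 to H2-DMa, H2-DMb2 to H2-DMb1 and H2-Ab1 to Adgre1, with circles, squares and triangles for replicates 1, 2 and 3. Cd74 to H2-Ab1 stays within 2.08 to 2.88, while H2-DMb2 to H2-DMb1 spans 0.0126 to 1.33 and H2-Ab1 to Adgre1 is lowest in eWAT GFP HFD, at 1.81 to 2.31.

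The irisin vector went with no called change of any member, in either depot and on either diet. In each of the 4 comparisons 0% of all genes tested were called; 431 genes in iWAT on HFD, 688 in iWAT on chow, 1510 in eWAT on HFD and 845 in eWAT on chow had an unadjusted p under 0.05 in limma, and limma's voom on the reads also called 0 genes in each; with array weights 12, 2248, 2213 and 1 genes were called in the same order, none of them a member. The 10 differences of irisin against GFP ran from -2.43 to -0.69 in iWAT on HFD, from 0.47 to 0.80 in iWAT on chow, from -0.09 to 0.38 in eWAT on HFD and from -1.36 to -0.28 in eWAT on chow.

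Among the members named for these comparisons, H2-Ab1 differed by -0.72 ± 0.44 in iWAT on HFD, 0.66 ± 0.44 in iWAT on chow, 0.27 ± 0.33 in eWAT on HFD and -0.36 ± 0.33 in eWAT on chow. Cd74 differed by -0.77 ± 0.47, 0.80 ± 0.47, 0.23 ± 0.34 and -0.32 ± 0.34 in the same order. For Ciita the differences were -1.27 ± 0.63, 0.54 ± 0.63, -0.01 ± 0.42 and -0.33 ± 0.42, and for H2-Ob they were -2.43 ± 1.09, 0.47 ± 1.09, 0.38 ± 0.48 and -1.36 ± 0.48. In iWAT on HFD the values leaned on GFP library 1 and were -0.25, -0.27, -0.36 and -0.74 for H2-Ab1, Cd74, Ciita and H2-Ob without it.

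In eWAT on chow H2-DMb2, H2-Oa and H2-Ob were lower in all irisin libraries than in all GFP libraries (differences -1.3, -0.92 and -1.36, adjusted p = 0.939 for each), and 10% of all genes had groups that did not overlap. H2-Ob read 7.28, 1.28 and 1.86 FPKM with GFP and 1.24, 0.685 and 0.429 with irisin. Beside them all 10 B cell markers had negative differences (median -1.87) and none was called. Without GFP chow library 1 the difference of H2-Ob was -0.72. The part of B cell RNA in these differences was not tested.

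The test of whether the diet difference changed with the vector called no member. Of all genes, 0% were called in iWAT (996 with an unadjusted p under 0.05) and 0.00614% in eWAT, a count of 1 gene. In iWAT the 10 interaction values were all negative, from -2.90 to -1.37, with adjusted p-values of 0.688 or more; H2-Ab1 gave -1.38 ± 0.62 and -0.91 without iWAT GFP HFD library 1. In eWAT they were all positive, from 0.22 to 1.74, and H2-Ab1 gave 0.63 ± 0.47 (adjusted p = 0.908). The call of the classical chains in eWAT of irisin mice and its lack in GFP mice was therefore not shown to be a difference between vectors.

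Between depots no member was called on chow. In GFP mice H2-DMb2 stood in eWAT at 19.7, 3.67 and 6.37 FPKM against 2.09, 0.692 and 0.691 in iWAT (2.43 ± 0.99, adjusted p = 0.222), with H2-Oa (1.07 ± 0.75) and H2-Ob (1.64 ± 0.90) in the same direction and also without overlap. Without the 4 libraries rich in other tissues the H2-DMb2 difference was 1.79 (adjusted p = 0.0215) and was called. The other 7 members differed by 0.03 to 0.63, and all 10 B cell markers had positive differences (median 2.17) with none called. In irisin mice on chow the classical chains and Cd74 had differences from -0.95 to -0.89, with no overlap and adjusted p-values of 0.264 to 0.34. Beside them 9 of 10 macrophage markers had groups that did not overlap (median -0.75, none called) and 4 of 5 muscle markers were called lower (median -5.96); the part of either was not tested. Of all genes, 4.63% were called in GFP mice and 4.33% in irisin mice on chow, and 18.8% and 30% had groups that did not overlap.

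On HFD 1 member was called between the depots of irisin mice. H2-Ab1 was higher in eWAT by 1.31 ± 0.41 (adjusted p = 0.0497), with 427, 261 and 472 FPKM in eWAT and 206, 98.5 and 170.4 in iWAT, where no library overlapped. The adjusted p lay just under the threshold, 7 of 17 alternative settings kept the call, and no member was called without eWAT HFD library 1 or 3 or iWAT HFD library 2 or 3. H2-Aa (1.29 ± 0.42), H2-Eb1 (1.20 ± 0.41), H2-DMa (1.25 ± 0.41), H2-DMb1 (1.32 ± 0.46) and Cd74 (1.18 ± 0.43) had adjusted p-values between 0.0569 and 0.0876. The remaining differences were 0.93 ± 0.99 for H2-DMb2, 0.96 ± 0.75 for H2-Oa, 1.10 ± 0.90 for H2-Ob and 1.05 ± 0.57 for Ciita. In the fit without the 4 libraries 6 members were called, H2-Aa, H2-Ab1, H2-Eb1, H2-DMa, H2-Oa and Cd74. None of those 4 libraries is in the groups compared here, so the differences stayed the same (1.31 for H2-Ab1). The spread, which is estimated over all groups of the fit, did change. Of all genes 10.3% were called and 23.3% had groups that did not overlap. Beside the members 8 of 10 macrophage markers were called higher in eWAT.

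In GFP mice on HFD no member was called between depots, while 15.2% of all genes were. H2-DMb1 differed by 0.60 ± 0.46 (adjusted p = 0.421), and H2-DMb2, H2-Oa and H2-Ob had values of -1.33, -1.52 and -1.7. Without iWAT GFP HFD library 1 those 3 values were 0.38, -0.03 and -0.01, so that H2-DMb2 changed sign. The other 6 members differed by -0.20 to 0.32. Beside them 9 of 10 macrophage markers were called higher and 1 of 10 B cell markers lower in eWAT.

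The diet difference itself was compared between depots. In irisin mice it was larger in eWAT for H2-Ab1 by 2.26 ± 0.58 (adjusted p = 0.0389), for H2-Aa by 2.19 ± 0.60 (0.0469) and for H2-Eb1 by 2.15 ± 0.58 (0.047), and these 3 members were called, beside 3.73% of all genes. Cd74 (2.07 ± 0.61), H2-DMb1 (2.11 ± 0.66) and H2-DMa (1.68 ± 0.58) were not called (adjusted p = 0.0614, 0.0734 and 0.104), nor were Ciita (1.74 ± 0.80), H2-Oa (1.39 ± 1.06), H2-Ob (1.3 ± 1.27) and H2-DMb2 (0.43 ± 1.39). Beside them 8 of 10 macrophage markers (median 2.89) and 4 of 5 muscle markers (median 5.81) were called higher, and the part of either in these values was not tested. Each of the 3 calls was kept in 10 of 23 alternative settings, and no member was called when any of the 12 libraries other than eWAT HFD library 2 and iWAT HFD library 1 was left out. In GFP mice no member was called, beside 4.31% of all genes: H2-DMb2 gave -3.76 ± 1.39, H2-Oa -2.60 ± 1.06, H2-Ob -3.34 ± 1.27 and H2-DMb1 0.33 ± 0.66, and the other 6 members gave -0.53 to 0.27.

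The genes whose pattern was most like each kind of member differed in type. Likeness was the Pearson correlation of log2 levels over 24 libraries with 11534 protein coding genes of at least 1 FPKM on average, given here as a description. Among the 5 genes most like H2-Ob were the B cell receptor gene Cd79b (0.97), Pax5 (0.96), Fcmr and Btla, and among those most like H2-Oa were Grap2, Bank1, Pax5 and Fcer2a. Ciita was most like Fam78a (0.97), Coro1a, Tlr9, Ikzf1 and Shisa5. The mean of H2-Aa, H2-Ab1, H2-Eb1 and Cd74 was most like Tmem229b (0.91), Hcst, Abcg3, Srgn and the kinase gene Syk (0.88). After group means were taken away, H2-Ob kept Cd79b, Pax5 and Fcmr among its 5 nearest genes, Ciita kept Coro1a and Tlr9, and the classical mean was nearest to H2-M3 (0.91) and the costimulation gene Cd86 (0.91).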

How the data were processed

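Polyadenylated RNA of 24 fat libraries was sequenced. HISAT2 2.0.5 and featureCounts 1.5.0-p3 are named in the submitters' processing notes; for strand and genome build, the sources used here name none. The authors deposited FPKM values per gene, and 8 other numeric columns of the table were not used. Reads recovered from the FPKM steps were whole for 100% of values (tolerance 0.01). The members and gene lists were chosen with earlier results of these data known.

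Genes with at least 0.5 FPKM in 3 libraries were tested on log2(FPKM + 0.5) with limma 3.58.1 (R 4.3.3, mean-variance trend) and Benjamini-Hochberg adjustment over all genes tested: 16125 in iWAT, 16274 in eWAT and 17687 for depot comparisons, which used all 24 libraries. The procedure was tested on simulated data. All 10 members are named in diet and depot comparisons, 4 in vector comparisons (H2-Ab1, Cd74, H2-Ob and Ciita, plus those without overlap, chosen after their values were seen), and from each list up to 3 called genes of lowest adjusted p, or 2 of lowest p; genes named beyond these were chosen after their values were seen. Alternatives were other pseudocounts (0.1 and 1), filters, scalings, voom on the reads, array weights, a replicate block, fits of only the groups compared, and libraries left out. No 2 libraries were identical. Figures and motif searches used Python 3.11.15. Sequences are from RefSeq; single-gene promoters missing from that table were not analysed here. Some results on single marker genes are not reported here.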

Additional observations from a re-analysis of the deposited data

Results flagged for a closer look

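In irisin mice the HFD difference of 3 classical chains was larger in eWAT than in iWAT, by the test of the difference itself (limma, adjusted over all genes). It differed by 2.26 on the log2 scale for H2-Ab1, 2.19 for H2-Aa and 2.15 for H2-Eb1. In eWAT, where 36.5% of all genes had groups that did not overlap, all HFD libraries lay above all chow libraries for these genes. In iWAT, where that share was 37.1%, all lay below. Beside them 8 of 10 macrophage markers and 4 of 5 muscle markers were called in the same direction, and their part in the result was not tested. Each call was kept in 10 of 23 alternative settings, and all 3 were lost when any of the 12 libraries other than eWAT HFD 2 and iWAT HFD 1 was left out.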

How the results depend on the processing

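Of 1911 values of single members over the alternatives, 1885 kept their direction and 26 reversed, none of them called. The number of members called changed as follows. With array weights it was 4 in iWAT irisin mice (HFD against chow), 6 in eWAT GFP mice, 8 in eWAT irisin mice, 4 between depots in irisin mice on chow, 7 on HFD, and 2 (GFP) and 7 (irisin) for the depot by diet test. Without the 4 libraries it was 6 in eWAT GFP mice, 6 in eWAT irisin mice (H2-DMa added), 4 for the depot by diet test in irisin mice (Cd74 added), and between depots 1 in GFP mice on chow and 6 in irisin mice on HFD. None of these 4 libraries is in an eWAT irisin group or an irisin HFD group. The diet differences in eWAT irisin mice (0.90 for H2-DMa) and the depot differences in irisin mice on HFD therefore stayed the same, and the spread changed. Without a filter the number of members called was 2 in eWAT irisin mice. Between depots in irisin mice on HFD, pseudocount 1, no filter, upper quartile scaling, quantile scaling, voom and a fit of only the groups compared gave 0, and on chow the last gave 3. The depot by diet test in irisin mice gave 0 with no filter, quantile scaling or voom.

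Leaving out single libraries gave 1 to 5 in eWAT GFP mice (5 without chow 1, 2 without HFD 3), 1 to 7 in eWAT irisin mice (1 without chow 2, chow 3, HFD 1 or HFD 3), 0 to 1 between depots in GFP mice on HFD (1 without iWAT HFD 2), 0 to 6 in irisin mice on HFD, and 0 to 2 (GFP) and 0 to 6 (irisin) for the depot by diet test. The cause was not tested.

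With the replicate block the counts were 6 in eWAT irisin mice, 5 between depots in irisin mice on HFD and 6 for the depot by diet test in irisin mice. Same-numbered libraries had correlations of their deviations from -0.17 to 0.36 between depots, -0.35 to 0.33 within eWAT and -0.26 to 0.32 within iWAT, so the numbers were not taken to pair libraries.

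Reversed values for HFD against chow were, with array weights, -0.017 for H2-Aa and -0.202 for H2-Ab1 in iWAT GFP mice and 0.189 for H2-DMb1 in iWAT irisin mice, and for H2-DMb2 in eWAT irisin mice -0.034 (upper quartile), -0.007 (quantile), -0.035 (voom) and -0.494 (array weights). For irisin against GFP in eWAT, Ciita on HFD gave 0.007 (pseudocount 1) and 0.02 (quantile), and on chow without the 4 libraries Cd74 gave 0.037 and Ciita 0.083. Without the 4 libraries the vector by diet value of Ciita in eWAT was -0.129, and between depots H2-DMb1 in GFP mice on chow gave -0.236 with array weights. Leaving out single libraries, these uncalled values crossed 0: H2-DMb1 diet in iWAT irisin mice from -0.582 to 0.5 (above 0 without HFD 2), H2-DMb2 diet in eWAT irisin mice from -0.291 to 0.312 (below 0 without chow 2 or HFD 3), Ciita by vector in eWAT from -0.456 to 0.424 on HFD and from -0.56 to 0.083 on chow, Cd74 by vector in eWAT on chow from -0.621 to 0.037 (both above 0 without GFP chow 1), and Ciita by vector and diet in eWAT from -0.125 to 0.756. Between depots the ranges were -0.127 to 0.521 for H2-DMb1 (GFP chow), -2.471 to 0.377 for H2-DMb2 (GFP HFD, above 0 without iWAT HFD 1) and -0.45 to 0.178 for H2-Ob (irisin chow).

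Numbers of all genes called ranged widely: 382 (0 to 3898) for diet in iWAT GFP mice, 1453 (266 to 7509) in iWAT irisin mice, 4310 (2643 to 5835) in eWAT GFP mice and 2831 (1116 to 9817) in eWAT irisin mice. For irisin against GFP they were 0 and reached 12 and 2248 in iWAT (HFD and chow) and 2213 in eWAT on HFD with array weights, and 4 in eWAT on chow with a fit of only the groups compared. Between depots they were 819 (379 to 1981), 2695 (1363 to 5852), 765 (483 to 3058) and 1819 (28 to 4921) for GFP chow, GFP HFD, irisin chow and irisin HFD, and for the depot by diet test 762 (268 to 4293) in GFP and 659 (62 to 4425) in irisin mice. H2-Oa, with a median of 8 reads, is limited by depth.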
